A study of Mus musculus with 4 samples.

Results

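The genes described here make, move and use ketone bodies: *Acat1* and *Bdh1*, which encode enzymes of ketone body synthesis, *Slc16a1* and *Slc16a6*, which encode membrane carriers, and *Oxct1*, which encodes the enzyme that starts ketone body use outside the liver. They were chosen by gene symbol, and all 5 were found among the 35739 genes of the deposited abundance table. RNA-seq was performed on total RNA of the liver, with WT replicates 2 and 3 set against replicates 1 and 3 of *Usp21* KO mice, to find genes whose expression depends on *Usp21*, which encodes a ubiquitin protease. The KO is constitutive: exons 3 and 4 of *Usp21* were removed by Cre recombination in every tissue, and the mice carry a mixed background of C57BL/6 and the strain of the targeted embryonic stem cells. WT and KO mice were littermates of 10 to 11 weeks of age on a normal diet, while the sex and feeding state of the mice behind the libraries are not given in the sources used here. Each genotype had 2 libraries labelled with separate replicate numbers, and the labels do not say whether each library came from 1 mouse. Every p-value below thus rests on at most 2 libraries per genotype. Those from limma also draw on the spread of other genes, unless stated otherwise.

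In the fasting liver, fatty acids are oxidised in mitochondria to acetyl-CoA, and part of it is turned into ketone bodies. ACAT1 joins acetyl-CoA to acetoacetyl-CoA, from which acetoacetate is made, and BDH1 reduces acetoacetate to β-hydroxybutyrate. Both ketone bodies leave the hepatocyte through monocarboxylate carriers of the SLC16 family and are taken up by heart, muscle and brain, where OXCT1 returns them to acetoacetyl-CoA. Hepatocytes hold little OXCT1, so the liver exports ketone bodies and does not burn them.

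Abundance is given as TPM, a share of all transcripts in a library that is corrected for transcript length, so that levels can be compared between genes. TPM keeps no record of the number of reads. A second table of reads per gene scaled to library size (CPM) yielded 148164 and 110427 recovered reads in the WT libraries and 145306 and 102898 in the KO libraries. There, 428 of the 686 genes that reached 100 TPM in each library were at 0 throughout, and so were *Acat1*, *Bdh1*, *Slc16a1*, *Oxct1* and *Usp21*, so the comparisons below rest on TPM. *Usp21* had 4.07 and 6.30 TPM in WT mice against 1.64 and 2.93 TPM in KO mice. Each KO library was below each WT library (log2 fold change -0.92, standard error 0.33, limma adjusted p = 0.464), and the exons that the deletion leaves in place can still receive reads. All 7 hepatocyte markers were detected, of which 4 were higher and 3 lower in KO, and their log2 fold changes had a median of 0.24. Their summed level of 64800 and 51350 TPM in WT mice against 52930 and 44240 TPM in KO mice was mostly *Alb* (43180 and 32020 TPM in WT, 31010 and 27480 TPM in KO), while all 5 skeletal muscle markers were at 0 in every library.

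Levels of the 5 genes spanned more than 2 orders of magnitude. *Acat1* (60.5 to 116 TPM) and *Bdh1* (66.9 to 92.3 TPM) stood highest, with mean levels that ranked 909 and 947 among the 9581 genes that averaged 1 TPM or more. Their ranges overlapped, and *Acat1* was above *Bdh1* in 1 of 4 libraries, so this pair did not differ beyond its spread. *Slc16a1* (5.05 to 12.6 TPM, rank 4304) lay below *Bdh1* in all 4 libraries, with a ratio of mean TPM of 9.22 between *Bdh1* and *Slc16a1*. *Oxct1* (0.847 to 1.51 TPM, rank 9284) lay below *Slc16a1* in all 4 libraries, with a ratio of mean TPM of 7.75 between *Slc16a1* and *Oxct1*. *Slc16a6* (0.218 to 0.999 TPM) was lowest, and although its range overlapped that of *Oxct1*, it was below *Oxct1* in each of the 4 libraries. The enzymes of synthesis were thus the abundant transcripts. The ketolytic *Oxct1* (mean 1.16 TPM) lay just above the mean of 1 TPM that these ranks require, and the carrier *Slc16a6* (mean 0.648 TPM) below it. Many measured genes lay lower than *Oxct1*, as 15061 genes had a value above 0 in at least 1 library.

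**Figure D1:**
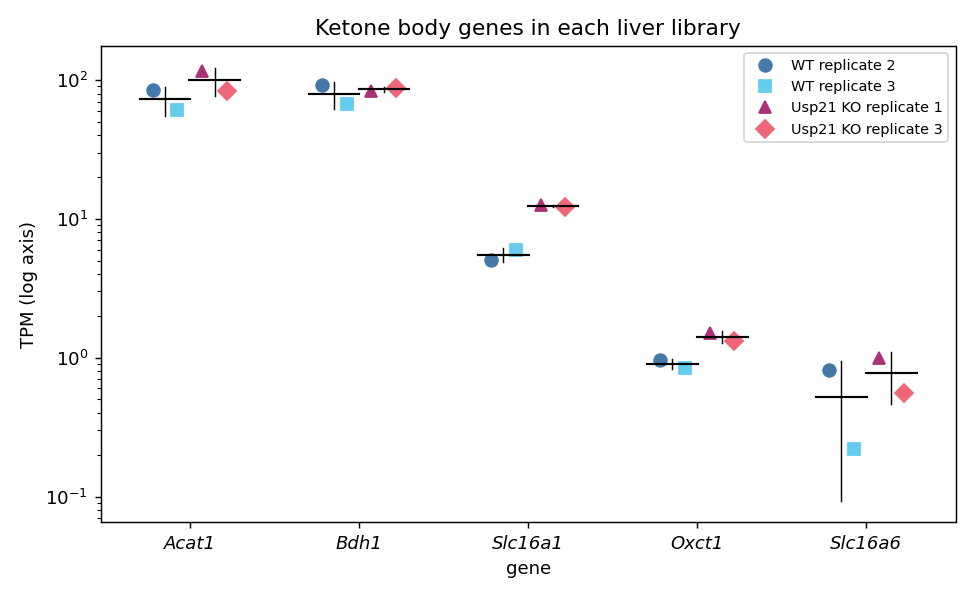
TPM of the 5 genes (x axis) in each library on a log axis (y axis), with horizontal bars for the mean and vertical bars for the SD of the 2 libraries of each genotype. *Slc16a1* and *Oxct1* are the 2 genes whose KO libraries both lie above both WT libraries, at 12.6 and 12.2 TPM against 5.05 and 5.96 TPM for *Slc16a1*.

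Each gene was compared between genotypes with limma on log2(TPM + 1), two-sided, and p-values were adjusted by the Benjamini-Hochberg method over the 9581 genes that averaged 1 TPM or more. For a gene with few transcripts, the added 1 makes the difference on this scale smaller than the ratio of its TPM. Of the 5 genes, 4 passed this minimum, and *Slc16a6* (mean 0.648 TPM) was fitted without it among 15061 genes. An exact permutation test of a single gene cannot reach a p below 0.33 in this design. At an adjusted p under 0.05, 0 of the 4 tested genes were called, and 8 of all tested genes (0.0835%) were called by the same rule. At an unadjusted p under 0.05, 1 of the 4 (*Slc16a1*) was higher in KO, a call made for 8.45% of all tested genes, and 0 were lower, a call made for 2.04%. By edgeR and DESeq2 on the recovered reads, only *Slc16a6* could be fitted, and it was called by neither (unadjusted p = 0.570 by edgeR and 0.694 by DESeq2). All 4 tested genes had a log2 fold change above 0, with a median of 0.40, whereas the median of all tested genes was 0.15 and 66.7% of them were above 0. The median of all tested genes was 0.04 after upper quartile scaling and 0.00 after median-of-ratios scaling, so differences relative to this median are also given for single genes below.

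Genotypes did not overlap for 2 of the 4 tested genes, *Slc16a1* and *Oxct1*, both higher in KO. Among all tested genes this was so for 34.4% in the higher and 10.9% in the lower direction, so 2 of 4 is not far from the background. A difference of at least 2-fold upward on log2(TPM + 1) was seen for 1 of the 4 (*Slc16a1*) and for 2.59% of all tested genes.

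*Slc16a1* encodes MCT1, the proton-linked carrier of lactate, pyruvate and ketone bodies that is found in the plasma membrane of most cells. The gene (ENSMUSG00000032902) lies on the forward strand of chromosome 3 from 104638668 to 104658462 in build GRCm38, and its transcript of 4426 bp has 5 exons. Its level was 5.05 and 5.96 TPM in WT (mean 5.50 ± 0.644, SD, n = 2) and 12.6 and 12.2 TPM in KO mice (mean 12.4 ± 0.222, SD, n = 2), a ratio of mean TPM of 2.25. The gap between the genotypes was wider than the distance between the libraries of either genotype. In whole liver, more RNA per cell and more cells of a type that holds the transcript cannot be told apart.

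The log2 fold change of *Slc16a1* was 1.05 (standard error 0.21, 95% interval 0.52 to 1.57), with an unadjusted p = 0.0030 and an adjusted p = 0.402 from limma. By size this was the 211th highest log2 fold change of the tested genes, with 97.8% of them below it, and by p it ranked 70th. Relative to the median of all tested genes the difference was 0.90. It was 0.93 after upper quartile scaling and 0.89 after median-of-ratios scaling, and lay between 0.95 and 1.15 when single libraries were left out. None of the 4396 stretches of 31 bases in its annotated transcript occurred in a transcript of another gene, so its TPM does not rest on sequence shared with other annotated genes.

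The RefSeq promoter table (GRCm38.p6) held windows for *Slc16a1*, *Bdh1* and *Oxct1*, and *Acat1* and *Slc16a6* are named only. The 250 bases before the *Slc16a1* start, on the forward strand at chr3:104638414-104638663, are shown because this gene had the largest difference of the 5.

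Slc16a1: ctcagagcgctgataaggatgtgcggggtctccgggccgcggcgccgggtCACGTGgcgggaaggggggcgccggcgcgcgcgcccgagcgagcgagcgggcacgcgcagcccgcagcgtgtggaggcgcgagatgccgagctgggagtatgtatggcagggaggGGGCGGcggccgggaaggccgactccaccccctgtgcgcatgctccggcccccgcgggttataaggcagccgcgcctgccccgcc

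Capitals mark matches to the E-box CACGTG, from 200 to 195 bases before the start, and to the GC box GGGCGG, from 85 to 80 bases before it. Of 32851 windows of the same length, 6.02% held CACGTG and 32.7% held GGGCGG on either strand (CACGTG reads the same on both strands). The other motifs searched on both strands were AGGTCA (in 14% of windows), TGACGTCA (1.55%), CCAAT (33.8%) and TATAAA (12.4%), and these letters did not occur in this window. With 76.4% G and C and 37 CpG dinucleotides it was richer in both than the *Oxct1* window (52.0% G and C, 6 CpG) and the 2 *Bdh1* windows (49.6% and 60.8% G and C, 7 and 9 CpG), in which none of the 6 motifs occurred. The median over all windows was 52.4% G and C. A match is a description of the letters and not of binding.

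*Slc16a6* encodes MCT7, a carrier of the same family for which export of β-hydroxybutyrate from the liver has been described in fish. The gene (ENSMUSG00000041920) is on chromosome 11, reverse strand, from 109450855 to 109473598. Its level was 0.821 and 0.218 TPM in WT (mean 0.519 ± 0.426, SD, n = 2) and 0.999 and 0.556 TPM in KO mice (mean 0.777 ± 0.313, SD, n = 2), and the genotypes overlapped. The log2 fold change of 0.24 (standard error 0.28, 95% interval -0.47 to 0.96, limma adjusted p = 0.779) left a difference in either direction within the interval.

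*Slc16a6* was the one gene of the 5 with reads in the CPM table, with 2 and 7 recovered reads in WT and 5 and 2 in KO. WT replicate 3 was lowest for *Slc16a6* by TPM and highest by CPM (64.2 CPM, against 15.4 CPM in WT replicate 2 and 33.4 and 18.5 CPM in KO). The direction thus turned to -0.34 on log2(CPM + 1) and to -0.50 with edgeR on the recovered reads. *Alb*, at 27480 TPM or more in each library, had only 9 and 6 recovered reads in WT and 2 and 1 in KO. These reads did not follow abundance by TPM, so the turn of sign is not read as a result about *Slc16a6*. Of the stretches of 31 bases in its transcripts, 22.4% also occurred in other genes, most of them in *Amz2*, which overlaps *Slc16a6* by 1959 bp on the opposite strand. *Amz2* had 4.75 and 5.10 TPM in WT mice against 9.26 and 4.63 TPM in KO mice, above *Slc16a6* in every library. Without a stated strand setting, reads of the overlap cannot be told apart. The *Slc16a6* values are uncertain for that reason and for their low TPM, and the number of reads behind that TPM is not known.

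*Acat1* encodes the mitochondrial acetoacetyl-CoA thiolase, a reversible enzyme that serves ketone body synthesis, ketone body use and isoleucine breakdown. The gene (ENSMUSG00000032047) is on chromosome 9, reverse strand, from 53580522 to 53610382, and its coding transcript of 3405 bp has 12 exons and shares no stretch of 31 bases with other genes. Its level was 84.8 and 60.5 TPM in WT (mean 72.6 ± 17.2, SD, n = 2) and 116 and 83.5 TPM in KO mice (mean 99.8 ± 23.1, SD, n = 2). KO replicate 3 lay just below WT replicate 2, so the genotypes overlapped. The log2 fold change was 0.45 (standard error 0.25, 95% interval -0.18 to 1.09, limma adjusted p = 0.536), and 0.30 relative to the median of all tested genes.

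*Bdh1* encodes the β-hydroxybutyrate dehydrogenase of the inner mitochondrial membrane, which interconverts acetoacetate and β-hydroxybutyrate. The gene (ENSMUSG00000046598) lies on the forward strand of chromosome 16 from 31422280 to 31458901, and its longest coding transcript of 3122 bp has 7 exons. Its level was 92.3 and 66.9 TPM in WT (mean 79.6 ± 18.0, SD, n = 2) and 83.2 and 87.9 TPM in KO mice (mean 85.5 ± 3.36, SD, n = 2). Both KO libraries lay between the WT libraries. The log2 fold change was 0.12 (standard error 0.21, 95% interval -0.40 to 0.64, limma adjusted p = 0.841). Its sign depended on scaling and on 1 library: it was -0.01 after upper quartile scaling, -0.05 after median-of-ratios scaling and -0.11 without WT replicate 3. Of the stretches of 31 bases in its transcripts, 12.3% were shared, nearly all with the antisense gene *Gm15743*.

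*Oxct1* encodes succinyl-CoA:3-ketoacid CoA transferase, the enzyme of ketone body use that hepatocytes hold at low levels. The gene (ENSMUSG00000022186) lies on the forward strand of chromosome 15 from 4026383 to 4155344, and its longest coding transcript of 3527 bp has 17 exons. Its level was 0.960 and 0.847 TPM in WT (mean 0.903 ± 0.0800, SD, n = 2) and 1.51 and 1.31 TPM in KO mice (mean 1.41 ± 0.137, SD, n = 2), a ratio of mean TPM of 1.56. The KO libraries both lay above the WT libraries.

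The log2 fold change of *Oxct1* was 0.34 (standard error 0.26, 95% interval -0.31 to 0.99, limma adjusted p = 0.638). With variances fitted per gene and not shared between genes, the unadjusted p was 0.0427 and the adjusted p 0.576. Relative to the median of all tested genes the difference was 0.19. With a pseudocount of 0.1 in place of 1 the log2 fold change was 0.59, with a pseudocount of 5 it was 0.12, and it stayed above 0 under all 11 alternatives run. Of the stretches of 31 bases in its transcripts, 11.8% were shared with *BC037032*, which overlaps it on the opposite strand.

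Summed marker levels of some other liver cell types differed between the libraries in the same direction as *Slc16a1* and *Oxct1*, with 1 gene making up most of each sum. The 6 cholangiocyte markers summed to 14.6 and 15.9 TPM in WT mice against 38.0 and 24.5 TPM in KO mice, with *Spp1* at 13.2 and 12.7 TPM in WT mice against 33.4 and 20.7 TPM in KO mice. *Krt19*, a keratin of bile duct cells, had 0.196 and 0.263 TPM in WT mice against 0.998 and 1.28 TPM in KO mice. For *Sox9* (0.641 and 1.88 TPM in WT, 2.41 and 1.84 TPM in KO), *Epcam*, *Krt7* and *Cftr* the genotypes overlapped. *Krt7* and *Cftr* had lower means in KO. *Cftr* was at 0 in WT replicate 2 and KO replicate 3, and *Krt7* was at 0 in KO replicate 3. Of the 6 markers, 2 (*Spp1* and *Sox9*) averaged 1 TPM or more. The 7 stellate cell and fibroblast markers, all detected in every library, summed to 54.9 and 46.2 TPM in WT mice against 84.7 and 64.2 TPM in KO mice. Most of this was *Dcn* (42.6 and 34.1 TPM in WT, 62.8 and 48.4 TPM in KO). Only *Dcn* and *Reln* had genotypes that did not overlap, 2 of the 5 tested markers, against 34.4% of all tested genes in this direction. In both lists the summed level was higher in both KO libraries than in either WT library, and its part in the *Slc16a1* and *Oxct1* values was not tested. Summed levels of Kupffer cell markers (75.0 to 194 TPM), sinusoidal endothelial markers (34.9 to 54.9 TPM) and erythroid markers (719 to 911 TPM) overlapped between the genotypes. The 6 lymphocyte markers summed to 3.17 and 3.40 TPM in WT mice against 2.64 and 1.85 TPM in KO mice, lower in both KO libraries.

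WT replicate 3 was the lowest library for *Acat1*, *Bdh1*, *Oxct1* and *Slc16a6*, and WT replicate 2 for *Slc16a1*. Among all tested genes, WT replicate 3 was lowest for 31.2%, WT replicate 2 for 32.6%, KO replicate 1 for 13.3% and KO replicate 3 for 22.9%.

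**Figure D2:**
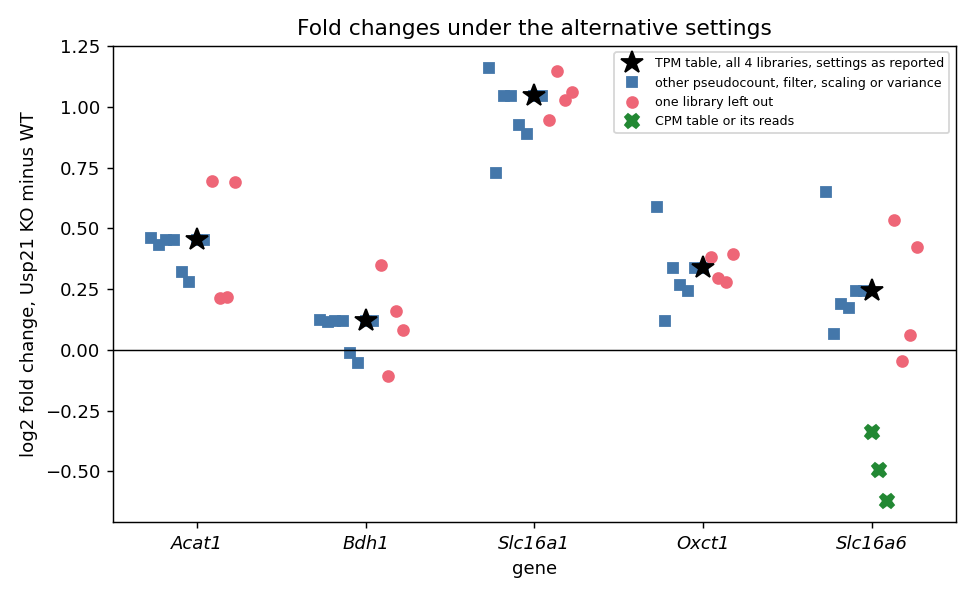
Log2 fold change, KO minus WT (y axis), of the 5 genes (x axis) with the settings as reported (stars), other pseudocounts, filters, scalings or variance models (squares), 1 library left out (circles), and values from the CPM table or its reads (crosses). *Slc16a1* lies between 0.73 and 1.16 throughout, *Acat1* between 0.21 and 0.70 and *Oxct1* between 0.12 and 0.59, while *Bdh1* (-0.11 to 0.35) and *Slc16a6* (-0.62 to 0.65) fall on both sides of 0.

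Ratios between genes of the same library do not depend on how libraries are scaled, and 3 such ratios were computed. The ratio of *Bdh1* to *Acat1* TPM was 1.09 and 1.11 in WT and 0.716 and 1.05 in KO. The KO libraries both lay below the WT libraries, by a mean of -0.34 on the log2 scale (exact permutation test, two-sided, p = 0.33, the smallest that 2 against 2 can give), which was -0.06 without KO replicate 1. The ratio of *Oxct1* to *Acat1* was 0.0113 and 0.0140 in WT and 0.0130 and 0.0157 in KO (log2 difference 0.18, exact permutation p = 0.667). The ratio of the carriers *Slc16a6* and *Slc16a1* was 0.163 and 0.0366 in WT and 0.0795 and 0.0454 in KO (log2 difference -0.36, exact permutation p = 1.0). The genotypes overlapped for both of these ratios. All 3 p-values were 1.0 after Benjamini-Hochberg adjustment over the 3 ratios.

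The rest of the ketone body pathway was described through 4 lists of genes, 36 genes in all, of which 28 were tested. Of these, 16 were higher and 12 lower in KO, and the median log2 fold change was 0.06. At an unadjusted p under 0.05, 3 were higher and 0 lower, and 0 had an adjusted p under 0.05. Genotypes did not overlap for 9 genes in the higher and 6 in the lower direction. The same rules called 8.45% and 2.04%, and found non-overlap for 34.4% and 10.9%, of all tested genes in these directions.

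*Bdh2*, a cytosolic dehydrogenase, had 10.6 and 16.8 TPM in WT mice against 17.1 and 13.5 TPM in KO mice (log2 fold change 0.17, limma adjusted p = 0.826). The genotypes overlapped, as they did for *Acat1* and *Bdh1*.

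Among the 10 other monocarboxylate carriers and their chaperones, 6 were tested, with 2 higher, 4 lower and a median log2 fold change of -0.16. *Slc16a10*, a carrier of aromatic amino acids, was the one gene of the list with an unadjusted p under 0.05: it had 16.1 and 12.1 TPM in WT mice against 25.6 and 24.5 TPM in KO mice (log2 fold change 0.80, 0.65 relative to the median of all tested genes, standard error 0.21, limma unadjusted p = 0.0104, adjusted p = 0.464). *Bsg*, the chaperone that brings MCT1 to the membrane and the most abundant gene of the list, had 319 and 317 TPM in WT mice against 295 and 284 TPM in KO mice (log2 fold change -0.14, limma adjusted p = 0.752). *Slc16a1* and its chaperone thus lay on opposite sides of 0, and the difference between their fold changes was not tested.

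*Slc16a7*, which encodes MCT2, and *Slc16a3*, which encodes MCT4, carry the same substrates as MCT1, and they are set beside it here after their values were seen. *Slc16a7* had 20.3 and 13.9 TPM in WT mice against 16.3 and 10.5 TPM in KO mice (log2 fold change -0.34, limma adjusted p = 0.673), and *Slc16a3* was at or below 0.314 TPM in every library. The summed TPM of these 3 carriers was 25.5 and 19.9 in WT and 29.1 and 23.1 in KO, so the genotypes overlapped. *Slc16a1* made up 19.8% and 30.0% of that sum in WT and 43.2% and 53.0% in KO, and *Slc16a1* exceeded *Slc16a7* in KO replicate 3 alone.

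**Figure D3:**
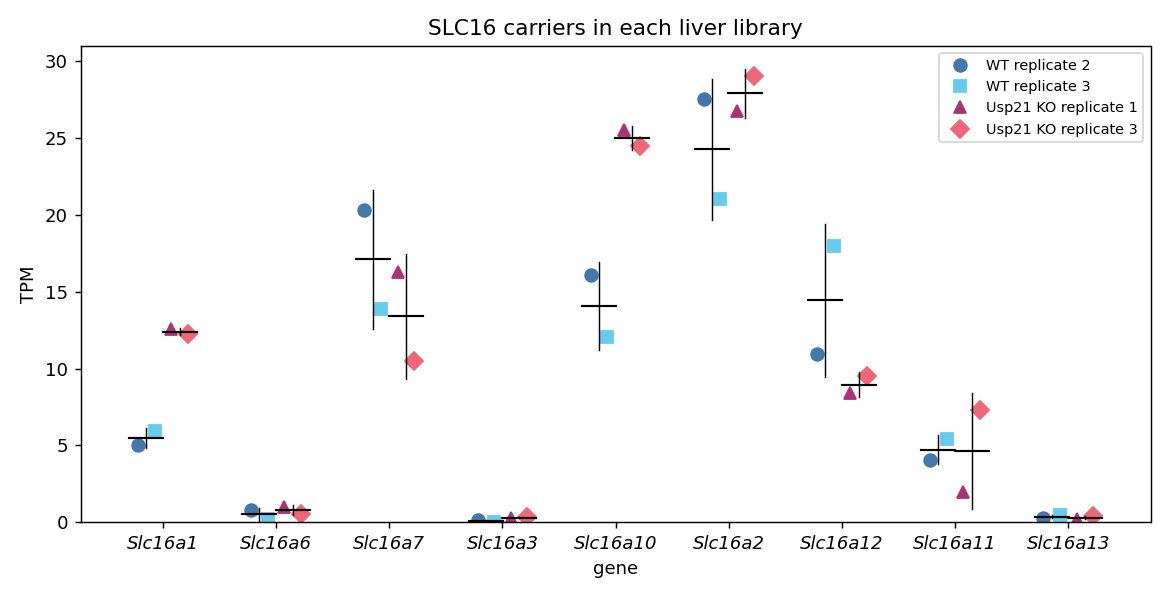
TPM (y axis) of 9 genes of the SLC16 family (x axis) in each library, with horizontal bars for the mean and vertical bars for the SD of the 2 libraries of each genotype. Both KO libraries lie above both WT libraries for *Slc16a1* and *Slc16a10*, and also for *Slc16a3* close to 0, while *Slc16a12* (10.9 and 18.0 TPM in WT, 8.40 and 9.53 TPM in KO mice) lies lower in both.

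Of the list of other enzymes that handle acetoacetate or acetoacetyl-CoA, the 2 tested genes, of cytosolic enzymes, had fold changes of the opposite sign to that of *Oxct1*. This difference was not tested. *Acat2*, the cytosolic thiolase and the most abundant gene of this list, had 22.8 and 29.6 TPM in WT mice against 29.8 and 14.3 TPM in KO mice (log2 fold change -0.31, limma adjusted p = 0.752). *Aacs*, the cytosolic acetoacetyl-CoA synthetase and the only other tested gene of the list, had a log2 fold change of -1.07 (standard error 0.47, limma adjusted p = 0.485). Its levels were 6.88 and 19.0 TPM in WT mice against 5.95 and 4.16 TPM in KO mice. Both KO libraries lay below both WT libraries, as for 10.9% of all tested genes, while the size of the difference rested mostly on WT replicate 3. *Oxct2a* and *Oxct2b*, the testis forms of *Oxct1*, were listed at 0 in all 4 libraries.

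All 15 genes of the supply of acyl-CoA to ketogenesis were tested, 9 of them higher and 6 lower in KO, and had a median log2 fold change of 0.11. *Acaa2*, the thiolase of the last step of β-oxidation and the most abundant gene of the list, had 605 and 510 TPM in WT mice against 466 and 518 TPM in KO mice. *Cpt1a*, the carnitine acyltransferase that gates entry of fatty acids into the mitochondrion, had 39.9 and 32.4 TPM in WT mice against 56.0 and 49.6 TPM in KO mice (log2 fold change 0.54, 0.39 relative to the median of all tested genes, standard error 0.19, limma unadjusted p = 0.0316, adjusted p = 0.464). *Etfdh*, which passes electrons of β-oxidation to ubiquinone, had 64.3 and 51.5 TPM in WT mice against 87.7 and 85.1 TPM in KO mice (log2 fold change 0.58, 0.43 relative to that median, standard error 0.18, limma unadjusted p = 0.0212, adjusted p = 0.464). These 2 genes were the ones with an unadjusted p under 0.05, and WT replicate 3 was the lowest library for 10 of the 15.

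Of the 7 regulators and signals of ketogenesis, 5 were tested, all with a log2 fold change above 0 and a median of 0.15, equal to that of all tested genes. *Creb3l3*, a liver transcription factor of the fasting response, was the most abundant, at 79.9 and 83.4 TPM in WT mice against 81.6 and 93.0 TPM in KO mice. *Ppargc1a*, which encodes the coactivator PGC-1α, had the largest fold change of the list and is named after its values were seen: it had 0.681 and 0.482 TPM in WT mice against 2.43 and 1.19 TPM in KO mice (log2 fold change 0.80, 0.64 relative to the median of all tested genes, standard error 0.33, limma unadjusted p = 0.0534, adjusted p = 0.477). Its genotypes did not overlap, with a ratio of mean TPM of 3.11, and the added 1 makes its log2 fold change smaller than this ratio. By RT-qPCR, the paper reported a significantly higher *Ppargc1a* level in KO livers. None of the 5 tested genes had an unadjusted p under 0.05 by limma.

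**Figure D4:**
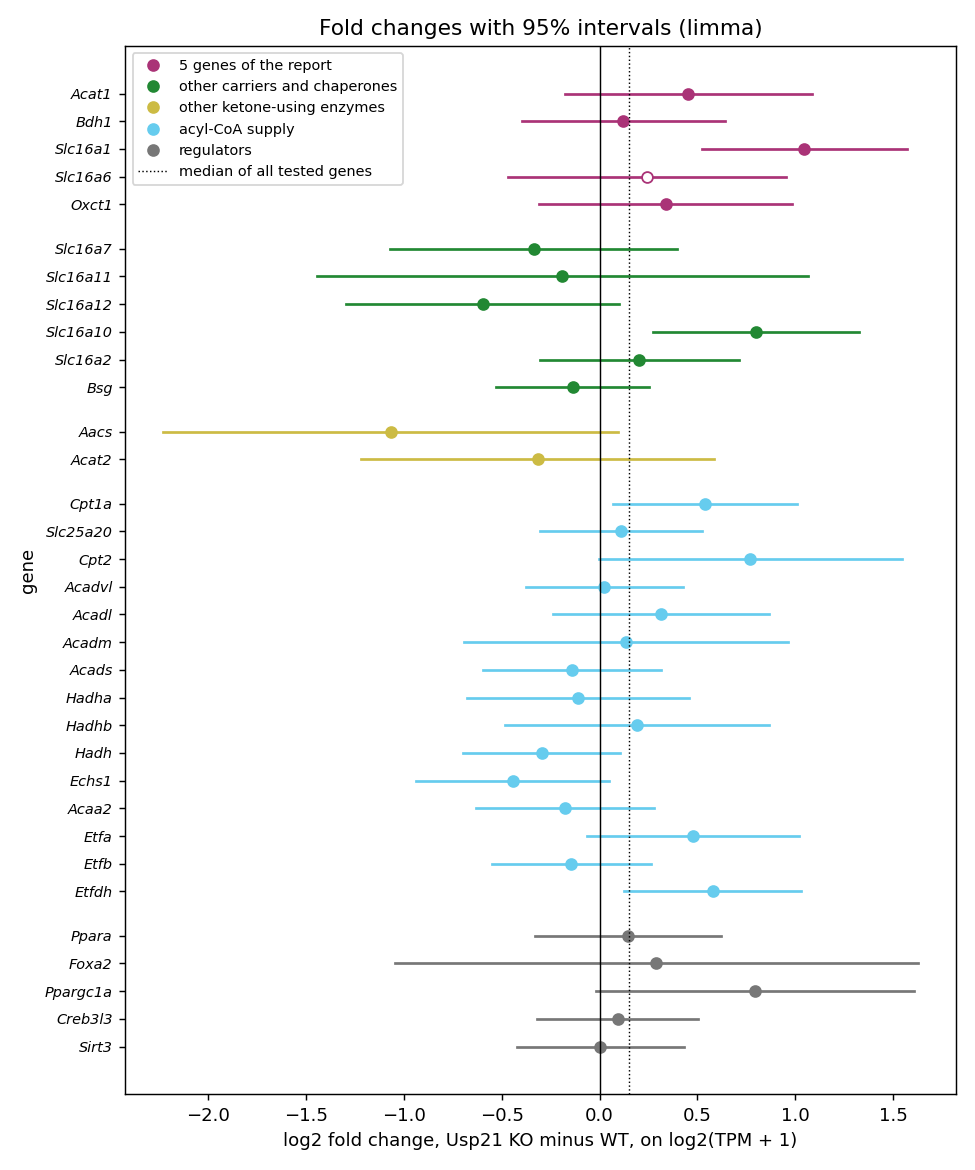
Log2 fold change, KO minus WT on log2(TPM + 1), with its 95% interval from limma (x axis), for the 5 genes and the tested genes of the other lists (y axis, coloured by list), where the open circle marks *Slc16a6*, fitted without the minimum of 1 TPM, and the dotted line the median of all tested genes (0.15). The intervals of *Slc16a1*, *Slc16a10*, *Cpt1a* and *Etfdh* lie above 0 and all others include 0.

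For each of the 4 tested genes, the genes with the most similar profile over the 4 libraries were taken among genes that averaged 10 TPM or more, by the Euclidean distance between log2(TPM + 1) values centred on their mean. For *Slc16a1* these were *Gm16199* (distance 0.160) and *Srsf1* (distance 0.187), the latter with 13.3 and 16.7 TPM in WT mice against 29.7 and 27.2 TPM in KO mice. For *Acat1* they were *Sparc* (0.0446) and *Rab32* (0.0545), for *Bdh1* *Myg1* (0.0283) and *Irak1* (0.0309), and for *Oxct1* *Man1a* (0.0254) and *Syap1* (0.0301). The distance grows with the size of a gene's own profile, so distances are not compared between the 4 genes. *Slc16a6*, below the minimum of 1 TPM, was not included.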

How the data were processed

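Liver RNA of WT and *Usp21* KO mice was sequenced on an Illumina MiSeq, with 2 libraries per genotype, and libraries were grouped by their labels. The authors deposited TPM per gene from Salmon (mm10), a log2(TPM + 1) table of the same values (equal to the TPM table within 5.3e-09), and HTSeq counts scaled by edgeR's TMM method, a count-based signal in CPM. Its log2 form was not used here. The submitters' processing notes also name Partek and deepTools. Versions, aligner, annotation release and strand setting are not given in the sources used here. A total of 0 columns were left unused.

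Genes that averaged 1 TPM or more (9581 of 35739) were tested on log2(TPM + 1) with limma 3.58.1 in R 4.3.3 (lmFit, eBayes with trend, two-sided, Benjamini-Hochberg adjustment, prior degrees of freedom 3.62). The study's own ANOVA in Partek was not repeated. The labels give no batch, so none entered the model. The 5 genes, the lists and the tests were chosen with earlier results of these data known. Other genes were named where they had an unadjusted p under 0.05 or the highest TPM of their list, or were 1 of the 2 most alike in profile; *Slc16a7*, *Slc16a3*, *Slc16a12*, *Bdh2*, *Ppargc1a*, *Aacs*, *Oxct2a* and *Oxct2b* were added after their values were seen. Some genes of the pathway are not reported here.

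CPM values divided by the value of 1 read gave whole reads for 100% of values within 0.02 reads. On these reads edgeR 4.0.16 called 12 genes and DESeq2 1.42.0 called 1 gene at an adjusted p under 0.05, of 5146 fitted, compared with 8 genes by limma on TPM. The scripts were tested on simulated data. Alternatives were pseudocounts of 0.1 and 5, no minimum and a minimum of 5 TPM, upper quartile and median-of-ratios scaling, variances without trend or moderation, the CPM table, and each library left out. Coordinates, exons and shared stretches of 31 bases come from GENCODE M21 (GRCm38), matched by gene identifier, and promoters from RefSeq.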

Additional observations from a re-analysis of the deposited data

How the results depend on the processing

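With all 4 libraries kept, an adjusted p under 0.05 was reached by 0 of the 5 genes under every alternative. Few of all tested genes reached it either: 9 with a pseudocount of 0.1, 6 with a pseudocount of 5, and 0 with variances not shared between genes. In the CPM table and its reads, *Slc16a6* alone could be fitted. *Alb* had at most 9 recovered reads there, so these values do not follow abundance by TPM. *Acat1* (12 alternatives, 0.21 to 0.70), *Slc16a1* (12, 0.73 to 1.16) and *Oxct1* (11, 0.12 to 0.59) kept a log2 fold change above 0, with adjusted p-values of 0.413 to 0.873, 0.361 to 0.808 and 0.499 to 0.842. The *Bdh1* fold change turned to -0.012 with upper quartile scaling and -0.054 with median-of-ratios scaling, and ran from -0.11 to 0.35 with each library left out. The *Slc16a6* fold change turned to -0.34 in the CPM table, -0.50 with edgeR and -0.62 with DESeq2 on recovered reads, and ran from -0.046 to 0.53 with each library left out. The number of the 5 genes with non-overlapping genotypes was 2, also after upper quartile and median-of-ratios scaling. Among all tested genes the share was 34.4% in the higher and 10.9% in the lower direction. With a library left out, 1 library is compared with 2 and non-overlap is easier to reach. No share of all tested genes is at hand for that comparison, so its counts are not given. The log2 ratio of *Oxct1* to *Acat1* turned from 0.18 to -0.12 with a pseudocount of 1 on both genes, because *Oxct1* lies near 1 TPM. The ratio of *Slc16a6* to *Slc16a1* ran from -1.44 without WT replicate 3 to 0.71 without WT replicate 2. For *Slc16a6*, *Bdh1* and these ratios the cause was not tested otherwise. The fits without 1 library assume that the lone library varies like the others. A minimum of 5 TPM leaves no value for *Oxct1* and *Slc16a6*, and the CPM table none for the other 4 genes. No paired analysis was possible because the labels give no litter or pair for the libraries, and a shared replicate number is not said to mark a pair. With 2 libraries per genotype and genes near 1 TPM, the intervals of *Oxct1* and *Slc16a6* limit what can be said of them.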
